A study of Homo sapiens with 18 samples.

Results

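Embryoid bodies that carried a lentivirus with a control shRNA were compared with embryoid bodies that had not been transduced, both made from the human embryonic stem cell line H1. The groups were chosen by sample title, 3 arrays with the control shRNA and 3 without, so that 6 of the 18 arrays of the series entered the comparison. All 6 were taken after 6 days of differentiation, in APEL medium, of cells aggregated in AggreWell plates. The untransduced embryoid bodies had no lentiviral infection, and the others came from cells infected with lentivirus carrying the control shRNA, whose sequence the labels do not give. H1 is 1 established line. Nothing in the labels ties a replicate number to a culture of its own, so p-values measure the spread between arrays, which may be technical. Infection and any other difference between the cultures cannot be told apart, because each group is of 1 kind.

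Embryoid bodies are floating aggregates in which stem cells leave pluripotency and begin to form the embryonic germ layers. The ectoderm divides into a neural plate, whose front end becomes forebrain and eye, a surface epithelium, and between them a border that gives rise to the neural crest. Border cells are known to express TFAP2A, PAX3, MSX and ZIC factors, and crest cells then switch on SNAI2, FOXD3, SOX10 and ETS1. WNT and BMP signals are known to favour the border and crest, whereas the forebrain forms where WNT activity is held low.

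The control shRNA embryoid bodies had far higher levels of several crest and plate border transcription factors than the untransduced ones. Several forebrain and eye field factors were lower, while other members of these groups changed little or went the other way. Epithelial genes, several genes of endoderm and yolk sac, and some genes typical of pluripotent cells were higher as well. Of 13304 genes tested with limma, 6745 passed at a Benjamini-Hochberg adjusted p under 0.05, which is 50.7%. A gene is said below to have risen or fallen when it passed. Of all genes tested 26.8% rose (3560 genes) and 23.9% fell (3185 genes). At a difference of 2-fold or more, 354 genes rose (2.66%) and 185 fell (1.39%), together 4.05%. The shares that rose and fell are the background for plain counts in the gene groups below, and the 2-fold shares for 2-fold counts. Members of each group are also read against the median difference of all genes tested, 0.02 on the log2 scale. The gene lists were chosen with earlier results of these data known and hold several of the genes ranked here. Their shares beside those of all genes are therefore descriptions and not tests. A gene tested only through the group in which it was high had to differ, so shares and medians describe the tested members alone.

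The groups of arrays lay well apart, and the balance of higher and lower calls depended on the scaling. Over all probe sets, pairs of arrays within a group correlated at 0.989 to 0.992 and pairs between groups at 0.971 to 0.979. The median log2 intensity of an array was 5.85 to 5.91 without virus and 6.05 to 6.08 with it, and over the whole series 5.85 to 5.95 on the 6 untransduced and 5.97 to 6.12 on the 12 transduced arrays. The median difference was 0.16 in the 4435 genes of lowest mean intensity, 0.01 in the 4434 of middle intensity and −0.08 in the 4435 of highest. When each array was centred on its median, the median difference became −0.15 and the calls changed from 52.8% to 25.8% higher (1855 higher, 5346 lower). With quantile normalization 43.6% were higher. The 2-fold calls changed from 65.7% to 45.2% and 56.8% higher, and all 539 of them stayed called in the same direction under both. Of the 354 genes that rose 2-fold, 99 lay under the 40th percentile on every untransduced array, and of the 185 that fell 2-fold, 37 lay under it on every control shRNA array. It held for 8 of the 15 largest increases (PAX3, DKK1, CDH9, ETS1, TFAP2C, AFP, NPR3 and APOA2). Among the 15 largest decreases it held for 4 (FGF9, GABRG3, AKAP6 and DIPK1C). For all these genes the lower level lies under the 40th percentile of each array of that group, so the size of the difference and its rank are uncertain. Only 3 arrays a group limit the precision.

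KBTBD8, the CUL3 adaptor that the study targets elsewhere in the series, is not targeted in either group. It read 4.54, 5.06 and 4.07 without virus and 4.43, 4.79 and 5.04 with the control shRNA. The groups overlapped, and KBTBD8 lay below the intensity limit for testing (difference 0.20, exact permutation test, two-sided, p = 0.7, where 3 against 3 arrays cannot go below 0.1). The same exact test gave p = 0.1 for each of TFAP2B, DKK1, CDH9, FGF9 and LHX2, a value that groups without overlap always give.

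**Figure D1:**
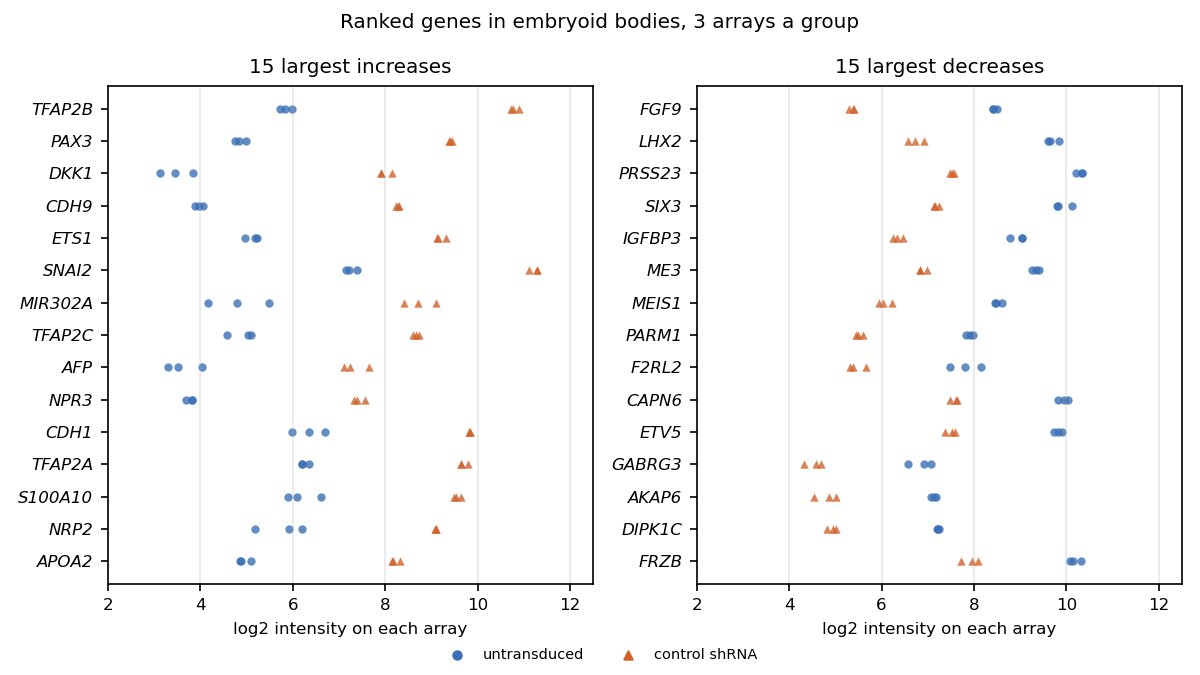
Log2 intensity on each of the 6 arrays for the 15 genes with the largest increase (left) and the 15 with the largest decrease (right), circles for untransduced and triangles for control shRNA embryoid bodies. No gene shown has overlapping groups, a condition of the ranking, and TFAP2B moved from 5.72 to 5.99 up to 10.72 to 10.89.

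The largest increase was that of TFAP2B, a transcription factor of the crest and of its sensory and sympathetic derivatives. Its log2 intensity was 5.83, 5.72 and 5.99 on the untransduced arrays and 10.89, 10.76 and 10.72 on the control shRNA arrays. The difference of 4.95 ± 0.09 (standard error of the limma fit, here and below) corresponds to 30.8-fold (adjusted p 1.6e-09). The untransduced values lay above the 40th percentile but only about at the array medians (5.85 to 5.91), which limits the precision of the fold. PAX3, a paired-box factor of the plate border, read 4.99, 4.76 and 4.83 without virus and 9.41, 9.44 and 9.37 with it. Without virus PAX3 lay under the 40th percentile of each array (5.26 to 5.33), and the difference was 4.55 ± 0.08. ETS1, needed for crest cells to leave the neural tube, rose by 4.07 ± 0.09, with arrays at 4.96 to 5.23, under the 40th percentile, against 9.12 to 9.31. SNAI2, the zinc finger repressor of migrating crest, rose from 7.15 to 7.38 up to 11.12 to 11.28, a difference of 3.98 ± 0.09.

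TFAP2B and PAX3 led the increases, and LHX2 and PRSS23 were the largest decreases that have an entry in the RefSeq promoter table of GRCh38.p14. Their promoters, 300 bases around the start, are shown with the motifs searched in capitals: GCCNNNGGC (bound by TFAP2 factors), CTTTGAT (TCF and LEF), CACCTG (SNAI factors) and TAATTA (homeodomain factors), each on both strands. The windows are chr6:50818621-50818920 (plus strand), chr2:222298949-222299248 (minus strand), chr9:124011518-124011817 (plus strand) and chr11:86800292-86800591 (plus strand).
TFAP2B: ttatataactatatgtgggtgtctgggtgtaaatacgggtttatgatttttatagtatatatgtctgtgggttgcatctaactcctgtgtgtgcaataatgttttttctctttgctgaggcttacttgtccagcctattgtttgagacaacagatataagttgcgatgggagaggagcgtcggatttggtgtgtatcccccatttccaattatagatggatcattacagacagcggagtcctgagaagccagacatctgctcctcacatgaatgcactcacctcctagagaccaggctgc
PAX3: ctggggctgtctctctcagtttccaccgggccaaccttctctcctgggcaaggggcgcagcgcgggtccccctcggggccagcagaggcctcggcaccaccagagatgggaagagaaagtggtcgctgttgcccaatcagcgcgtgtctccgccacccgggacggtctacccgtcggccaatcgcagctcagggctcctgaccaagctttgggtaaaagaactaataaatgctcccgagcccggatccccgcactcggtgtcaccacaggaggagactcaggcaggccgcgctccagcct
LHX2: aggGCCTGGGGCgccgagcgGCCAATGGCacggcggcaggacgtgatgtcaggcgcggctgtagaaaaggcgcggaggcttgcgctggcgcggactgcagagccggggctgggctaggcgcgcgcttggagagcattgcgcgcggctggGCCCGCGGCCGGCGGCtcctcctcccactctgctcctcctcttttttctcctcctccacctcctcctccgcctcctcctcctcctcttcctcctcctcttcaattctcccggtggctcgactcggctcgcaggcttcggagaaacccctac
PRSS23: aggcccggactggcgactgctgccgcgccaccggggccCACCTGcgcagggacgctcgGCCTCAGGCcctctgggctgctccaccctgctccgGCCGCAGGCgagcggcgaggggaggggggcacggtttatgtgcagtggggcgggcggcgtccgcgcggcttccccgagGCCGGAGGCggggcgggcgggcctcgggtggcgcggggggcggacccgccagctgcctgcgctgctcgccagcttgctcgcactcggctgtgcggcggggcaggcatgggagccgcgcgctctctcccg
The letters of GCCNNNGGC occur 4 times in the LHX2 window, of which a pair overlaps, and 3 times in that of PRSS23, which also holds 1 CACCTG. None of the motifs is found in the windows of TFAP2B and PAX3. Among 35116 RefSeq promoters of this length, 23.2% hold GCCNNNGGC, 2.62% CTTTGAT, 20.6% CACCTG and 4.84% TAATTA. A match describes the letters alone, and binding was not measured.

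The neural plate border list had 9 of 13 tested members that rose, 5 of them 2-fold (38.5%, against 2.66% of all genes), and 1 that fell. TFAP2A, a pioneer factor of border and surface ectoderm, rose by 3.44 ± 0.08 from arrays at 6.19 to 6.35. MSX2, a homeodomain target of BMP signals, rose by 2.29, PAX7, the relative of PAX3, by 2.04, and the zinc finger factor ZIC1 by 1.57. ZIC2, another border and neural plate factor, read 9.13 to 9.31 and 9.20 to 9.31 and did not pass. The median of the list was 0.47.

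Of the crest specifier list 17 members were tested, 11 rose, 2 fell and 4 did not pass, and 6 rose 2-fold (35.3%). These 6 were TFAP2B, ETS1, SNAI2, TFAP2C, SOX10 and FOXD3. TFAP2C, a TFAP2 factor shared with trophoblast and germ cells, rose by 3.77 ± 0.13 from a level under the 40th percentile of each untransduced array. SOX10, which marks crest progenitors and glia, read 6.06, 6.06 and 5.95 without virus and 8.13, 8.40 and 8.21 with it, a difference of 2.22 ± 0.09. FOXD3, a forkhead factor of premigratory crest, rose by 2.05 ± 0.15. The mesenchymal factor TWIST1 rose less, by 0.70. SOX5 (−0.48) and the BMP target ID2 (−0.82) fell, and SOX9, an early specifier, read 7.54 to 7.64 and 7.58 to 7.65 and did not pass. The call of SOX5 was lost with all 18 arrays (limma adjusted p 0.63). Of the named genes that lost their call with 18 arrays, here and below, only FOXA2 and MAP2 also lost it with 16. The fit of 16 arrays leaves out replicate 2 of both KBTBD8 shRNA groups.

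Genes of migrating crest and its derivatives followed in part. Of 14 tested members 9 rose, 5 by 2-fold, and 2 fell, with a median of 0.51. S100B of glia rose by 2.54, the neuregulin receptor ERBB3 by 2.01, the integrin chain ITGA4 4.01-fold, CDH6, a cadherin of premigratory crest, by 1.84 and the endothelin receptor EDNRB by 1.79. CDH6 did not pass with all 18 arrays (limma adjusted p 0.2). CDH11, a cadherin of migrating crest and mesenchyme, went the other way (−1.59 ± 0.07). Of the 18 members with a probe set of their own, 14 were tested. Members that passed only through the group in which they were high had to differ, so these counts describe the tested members and not the whole lists.

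DKK1, a secreted WNT antagonist that is itself induced by WNT signals, was among the largest increases. It read 3.84, 3.46 and 3.13 without virus and 8.14, 7.90 and 7.91 with it (4.51 ± 0.16, adjusted p 7.8e-08). The untransduced values lie under the 40th percentile of their arrays (5.26 to 5.33), so no fold is given. In the list of WNT targets and antagonists 14 of 23 tested members rose, 7 by 2-fold (30.4%), and 5 fell, 2 by 2-fold. Besides DKK1 these rises included the RA-degrading enzyme CYP26A1 (2.45), the WNT amplifier RSPO3 (2.09), the inhibitor APCDD1 (1.82), the feedback gene AXIN2 (1.80 ± 0.10) and the receptor TNFRSF19 (1.66). The decreases were led by FRZB (−2.27 ± 0.11) and SFRP2 (−1.49), secreted proteins that bind WNT ligands. FRZB did not pass in a fit of all 18 arrays (limma adjusted p 0.088). FRZB had read 10.08 to 10.32 on the untransduced arrays and read 7.72 to 8.08 with the control shRNA.

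WNT ligands and receptors moved both ways, 10 up and 11 down of 29 tested, with a median of 0.08 that became −0.06 with quantile normalization and −0.10 with median centring. WLS, which carries WNT proteins to the cell surface, rose by 2.87 ± 0.12, from 8.09 to 8.58 up to 11.13 to 11.19. The receptor ROR1 rose by 1.97 and WNT1, a ligand of the dorsal midbrain and crest, by 1.29. The R-spondin receptor LGR5 fell by 2.04 and FZD5, a frizzled receptor of the eye field, fell by 1.89, from 10.19 to 10.23 down to 8.27 to 8.38.

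BMP genes had 16 of 29 tested members that rose, 6 by 2-fold (20.7%), and 4 that fell, none by 2-fold. MSX2 was joined by the ligand BMP5 (2.09), the extracellular modulator BMPER (2.09), the antagonist GREM1 (1.63) and BMP4 (1.31). BMP5 read 6.10 to 6.43 without virus and 8.24 to 8.43 with it. In the retinoid list 4 of 16 tested members rose 2-fold, CYP26A1, DHRS3 (1.38), which reduces retinal, the receptor RARG (1.24) and the retinol transporter STRA6 (1.23), while the target gene MEIS1 fell by 2.45 ± 0.09.

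**Figure D2:**
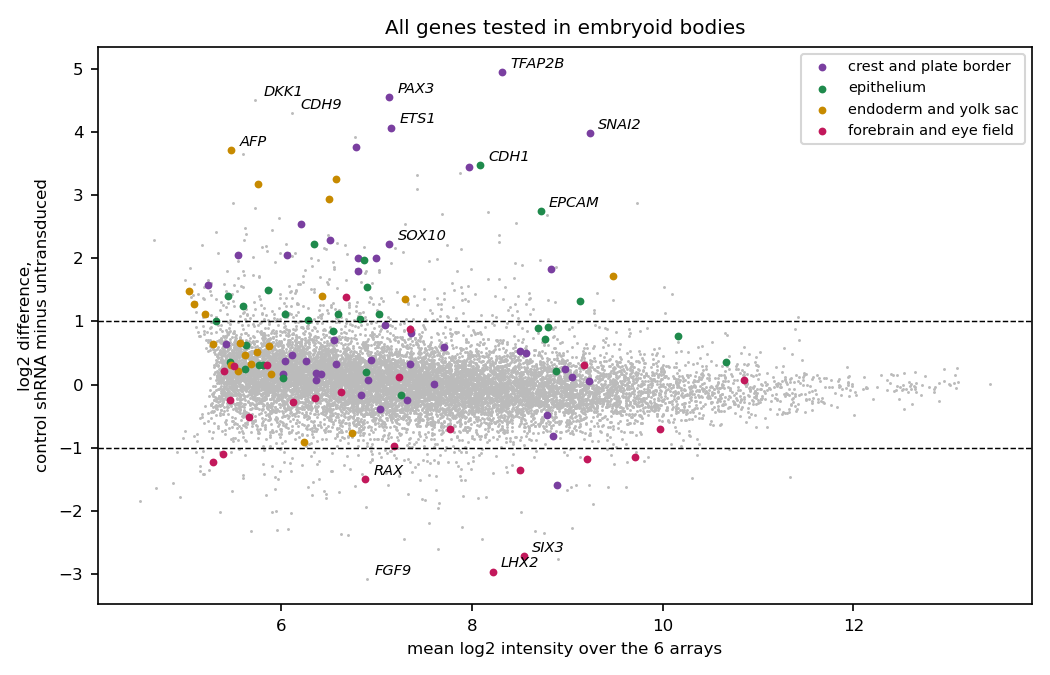
Difference in log2 intensity (vertical) against the mean log2 intensity over the 6 arrays (horizontal) for all 13304 genes tested, with 4 groups of genes in colour and dashed lines at 2-fold. TFAP2B (4.95) and PAX3 (4.55) are the highest points, FGF9 (−3.08) and LHX2 (−2.96) the lowest, and the genes of lowest intensity have a median of 0.16.

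Many forebrain and eye field genes fell while few rose. Of 24 tested members 12 fell, 8 of them 2-fold (33.3%, against 1.39% of all genes), 3 rose and 9 did not pass, with a median of −0.40. LHX2, a LIM homeodomain factor needed for eye and cortex, read 9.83, 9.65 and 9.61 without virus and 6.56, 6.92 and 6.72 with the control shRNA (−2.96 ± 0.10, adjusted p 7.8e-08). SIX3, which keeps the anterior plate free of WNT signals, fell by 2.72 ± 0.10, from 9.79 to 10.11 down to 7.14 to 7.24. The eye field factor RAX (−1.49), DACH1 (−1.36) and HESX1 (−1.24) of the forebrain also fell. PAX6 changed less (−0.70 ± 0.09) and stayed high, at 9.53 to 9.77 against 10.26 to 10.40. LHX5 of the diencephalon (1.38) and EMX2 of the dorsal forebrain (0.87) rose. In a fit of all 18 arrays SIX3, DACH1, HESX1, PAX6, LHX5 and EMX2 did not pass (limma adjusted p 0.1, 0.22, 0.072, 0.68, 0.12 and 0.29).

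Neural progenitor genes fell to a smaller extent, 12 of 23 tested members, 3 of them 2-fold, while 2 rose (median −0.28). SOX2, which keeps neural and pluripotent cells undifferentiated, fell by 1.02 ± 0.07, from 11.19 to 11.21 down to 10.13 to 10.29. The radial glia gene FABP7 (−1.59) and LIX1 (−1.63) fell more, although LIX1 did not pass with all 18 arrays (limma adjusted p 0.16). In the midbrain and hindbrain list 8 of 15 rose and 4 fell, with OLIG3 (1.85) and LMX1B (1.10), factors of the dorsal neural tube, the largest rises beside WNT1. FGF8, made at the anterior ridge and the midbrain-hindbrain boundary, fell by 1.79.

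FGF9 headed the ranked decreases. This FGF ligand, made by the early retina among other tissues, read 8.49, 8.40 and 8.42 without virus and 5.29, 5.38 and 5.40 with it (−3.08 ± 0.07). On the control shRNA arrays it lay under the 40th percentile of the array, 5.47 to 5.50, so no fold is given. Of 15 tested FGF ligands and receptors 3 fell, all 2-fold, and 8 rose, 1 of them 2-fold, the receptor FGFR2 (1.67). Feedback targets of FGF and ERK signalling were split, with 10 of 21 lower (4 by 2-fold, 19%) and 8 higher (2 by 2-fold). The transcription factor ETV5 fell by 2.32 ± 0.08, the inhibitors SPRY2 by 1.63 and IL17RD by 1.51, and ETV1 by 1.39. PHLDA1 of the same list rose by 1.95.

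The remaining large decreases lay outside these pathways. They were the secreted protease PRSS23 (−2.77), IGFBP3 (−2.60), which binds insulin-like growth factors, the mitochondrial malic enzyme ME3 (−2.45), PARM1 (−2.39), the thrombin receptor F2RL2 (−2.36), CAPN6 of the calpain family (−2.35), the GABA receptor subunit GABRG3 (−2.31), the kinase anchor AKAP6 (−2.31) and DIPK1C (−2.29). IGFBP5 fell too (−1.11), the only other 2-fold change in the 12 tested genes of the IGF list. It did not pass with all 18 arrays (limma adjusted p 0.4). GABRG3, AKAP6 and DIPK1C lay under the 40th percentile on every control shRNA array.

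Epithelial genes had the highest median of the 36 lists. Of 30 tested members 26 rose, 15 of them 2-fold (50%, against 2.66%), none fell and 4 did not pass, and the median was 0.96. With median centring 21 rose, 9 by 2-fold, and 1 fell. CDH1, the adhesion protein E-cadherin, read 5.99, 6.70 and 6.35 without virus and 9.83, 9.84 and 9.81 with it (3.48 ± 0.15, 11.2-fold). EPCAM, another epithelial adhesion protein, rose by 2.75 ± 0.35, with an array at 6.33 that lay below the other untransduced ones (7.72 and 7.99). GRHL3 (2.22) and GRHL2 (1.41), grainyhead factors of epithelia, the claudin CLDN7 (1.97), GATA3 (2.84-fold) and the splicing factor ESRP2 (1.24) rose too. With all 18 arrays GATA3 did not pass (limma adjusted p 0.053). KRT5, a keratin of basal epidermis, was under the intensity limit at 4.82 to 4.93 and 4.69 to 5.21.

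Many of these epithelial genes are also high in pluripotent cells, and the levels in that state are given beside them. CDH1 averaged 10.34 in untransduced and 10.34 in control shRNA pluripotent cells, against 6.35 and 9.83 in the embryoid bodies. EPCAM averaged 10.84 in control shRNA pluripotent cells, against 10.10 in the embryoid bodies with the same virus. On average over the 31 epithelial genes with a probe set of their own, the untransduced embryoid bodies lay at 6.45 to 6.58, the control shRNA ones at 7.47 to 7.52 and the pluripotent groups at 7.57 to 7.58 and 7.63 to 7.72. The control shRNA embryoid bodies thus lay closer to the pluripotent groups than to the untransduced embryoid bodies. In whole cultures more cells of a type and more RNA per cell cannot be told apart.

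**Figure D3:**
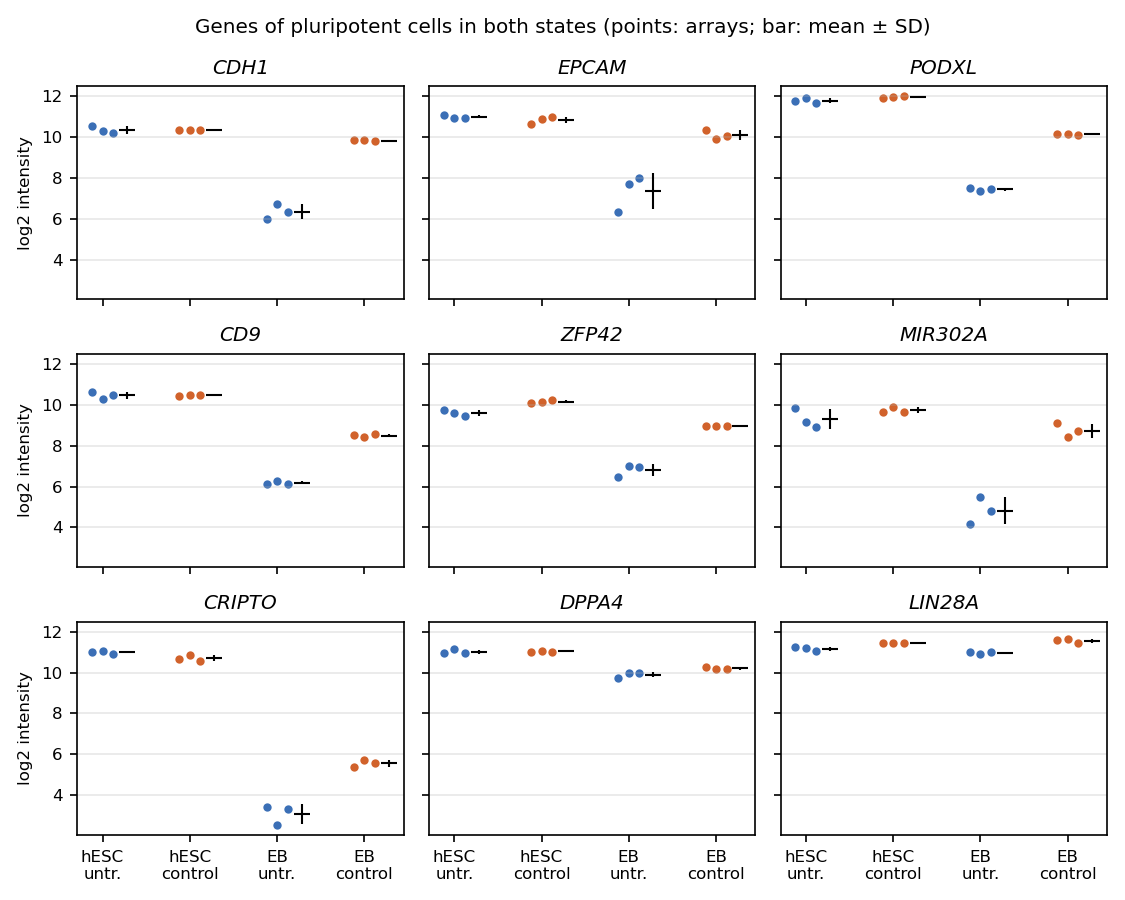
Log2 intensity of 9 genes that are high in pluripotent cells, on each array of 4 groups (hESC, pluripotent; EB, embryoid bodies; blue, untransduced; orange, control shRNA), with the mean and SD of 3 arrays as a bar. CDH1 and MIR302A in control shRNA embryoid bodies lie near the pluripotent level, and PODXL, CD9 and CRIPTO lie between the untransduced embryoid bodies and the pluripotent cells.

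Genes of the pluripotency list moved both ways, and its best known factors POU5F1 and NANOG were not analysed here. Of 25 tested members 16 rose, 5 of them 2-fold (20%), and 6 fell, 3 of them 2-fold. PODXL, a sialomucin of the stem cell surface, read 7.51, 7.37 and 7.44 without virus and 10.14, 10.13 and 10.11 with it (2.69 ± 0.07), and averaged 11.78 and 11.96 in the pluripotent groups. The tetraspanin CD9 rose by 2.31 and ZFP42, a zinc finger factor of pluripotent cells, by 2.15. LIN28A (0.58) and DPPA4 (0.29) were high in both groups and rose little, and DPPA4 did not pass with median centring (0.12, adjusted p 0.3 by limma) or with all 18 arrays (adjusted p 0.36). CRIPTO, the NODAL coreceptor, was under the limit for testing. It read 3.41, 2.53 and 3.32 without virus and 5.40, 5.72 and 5.57 with it, and averaged 10.69 in control shRNA pluripotent cells. GDF3, a ligand of the TGF beta family, was under the limit too, with control shRNA arrays at 3.83 to 3.99. SALL2 (−1.62), SFRP2 and SOX2 fell. On average over 33 genes of the list, the untransduced embryoid bodies lay at 7.25 to 7.28, the control shRNA ones at 7.67 to 7.70 and the pluripotent groups at 8.62 to 8.84. Whether any pluripotent cells were present, and their part in the other differences, was not tested.

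The microRNA gene MIR302A, part of the cluster that marks pluripotent and early embryonic cells, ranked seventh among the increases. MIR302B of the same cluster and MIR21, named here after their values were seen, were the only other microRNA genes of 44 tested that rose 2-fold, and none fell 2-fold. The mature sequences from RefSeq (GRCh38.p14) are shown with the seed, bases 2 to 8, in capitals, since the seed decides which messages a microRNA pairs with.
hsa-miR-302a-3p: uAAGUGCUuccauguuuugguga
hsa-miR-302b-3p: uAAGUGCUuccauguuuuaguag
hsa-miR-21-5p: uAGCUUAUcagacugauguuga
The 3p arms of MIR302A and MIR302B share the seed AAGUGCU, and that of MIR21 is AGCUUAU. The probe sets stand for the genes, not for an arm. MIR302A read 4.17, 5.48 and 4.80 without virus and 9.09, 8.41 and 8.72 with it (3.92 ± 0.29). MIR302B read 3.96 to 4.35 and 6.35 to 6.67 (2.41 ± 0.12), and MIR21 read 5.03 to 5.47 and 7.63 to 7.73 (2.37 ± 0.11). Without virus MIR302B lay under the 40th percentile of each array (5.26 to 5.33). It was thus tested only through the control shRNA arrays and had to be higher there. MIR302A lay under that percentile on untransduced replicates 1 and 3. The pluripotent groups averaged 9.31 and 9.72 for MIR302A and 7.29 and 7.26 for MIR302B.

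The list of endoderm and yolk sac genes holds secreted proteins, transcription factors and surface proteins. Of 21 tested members 17 rose, 10 of them 2-fold (47.6%), and 2 fell, with a median of 0.66. AFP, the fetal counterpart of albumin, read 3.31, 3.52 and 4.04 without virus and 7.65, 7.11 and 7.24 with it (3.71 ± 0.19). AFP and APOA2 lay under the 40th percentile on every untransduced array. The apolipoprotein APOA2 rose by 3.26 ± 0.09, the cystatin CST1 by 3.18 ± 0.14, the thyroxine carrier TTR by 2.94 ± 0.10 and APOE by 1.72. Among the transcription factors of endoderm, SOX17 (0.31) and FOXA2 (0.33) rose little and FOXA1 fell by 0.92. SOX17 and FOXA2 did not pass with median centring (0.13 and 0.15, adjusted p 0.2 and 0.22 by limma) or with quantile normalization (both adjusted p 0.24), nor with all 18 arrays (adjusted p 0.077 and 0.1). Of the 33 members with a probe set of their own, 21 were tested. Members that passed the limit only through the control shRNA arrays, such as AFP and APOA2, had to be higher there. The share and the median of this list therefore describe the tested members alone. The chemokine receptor CXCR4, which many cell types carry, rose by 1.35.

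Neuron genes had 12 of 20 tested members that rose, 5 of them 2-fold (25%), and 5 that fell, none by 2-fold. GAP43 of growing axons rose by 2.74 ± 0.08, from 6.69 to 6.95 up to 9.50 to 9.56. POU4F1, a factor of sensory neurons, rose by 1.71 and the tubulin regulator STMN2 by 1.25, whereas the dendrite protein MAP2 fell by 0.30, a call lost with quantile normalization (−0.24, adjusted p 0.057 by limma). With all 18 arrays neither STMN2 nor MAP2 passed (limma adjusted p 0.058 and 0.81). Among guidance and Eph genes 18 of 35 rose, 7 by 2-fold (20%), and 9 fell. The semaphorin receptor NRP2 rose by 3.32 ± 0.21, with untransduced arrays at 5.18, 6.21 and 5.91 and the others at 9.08 to 9.10. The netrin receptor DCC (2.17), SLIT1 (2.17) and SEMA3E (2.11) rose, and SEMA5A fell by 1.95.

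CDH9, a type II cadherin of neurons, read 3.88, 4.05 and 3.98 without virus and 8.24, 8.30 and 8.27 with it (4.30 ± 0.07), and without virus it lay under the 40th percentile of each array, so no fold is given. Of 12 tested cadherins 5 rose, all 2-fold (41.7%), and 4 fell, 2 of them 2-fold. NPR3, a receptor that clears natriuretic peptides, and S100A10, the partner of annexin A2, rose as well (3.66 ± 0.08 and 3.36 ± 0.15). Without virus NPR3 also lay under the 40th percentile of each array. S100A10 was among 5 of 23 tested mesenchyme and matrix genes that rose 2-fold, with the PDGF receptor PDGFRA (1.81).

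Markers of other lineages were mostly low. PECAM1 and CDH5 of endothelium read 4.43 to 4.77 and 4.92 to 5.15 without virus and 4.64 to 4.75 and 4.79 to 5.05 with it, and PTPRC of blood cells 3.07 to 3.33 and 3.07 to 3.28, all under the intensity limit. KDR, a VEGF receptor of endothelium and of early progenitors, rose by 2.22, from 4.88 to 4.98 up to 7.12 to 7.23, the only 2-fold change in 8 tested genes of endothelium and blood. Without virus KDR lay under the 40th percentile of each array (5.26 to 5.33). It was thus tested only through the control shRNA arrays and had to be higher there. Of 6 tested genes of lateral and cardiac mesoderm 3 rose 2-fold, MEF2C (2.64), which is also expressed in crest and neurons, BMP4 and TBX2 (1.03). None of 14 tested genes of the primitive streak and paraxial mesoderm changed 2-fold, and 7 rose. Of 12 tested trophoblast and amnion genes 3 rose 2-fold and IGFBP3 fell, and CGA, a trophoblast hormone subunit, was under the limit at 4.37 to 4.68 and 5.09 to 5.32. The HOX list had 5 of 18 genes tested, 1 that rose, 1 that fell and no 2-fold change.

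**Figure D4:**
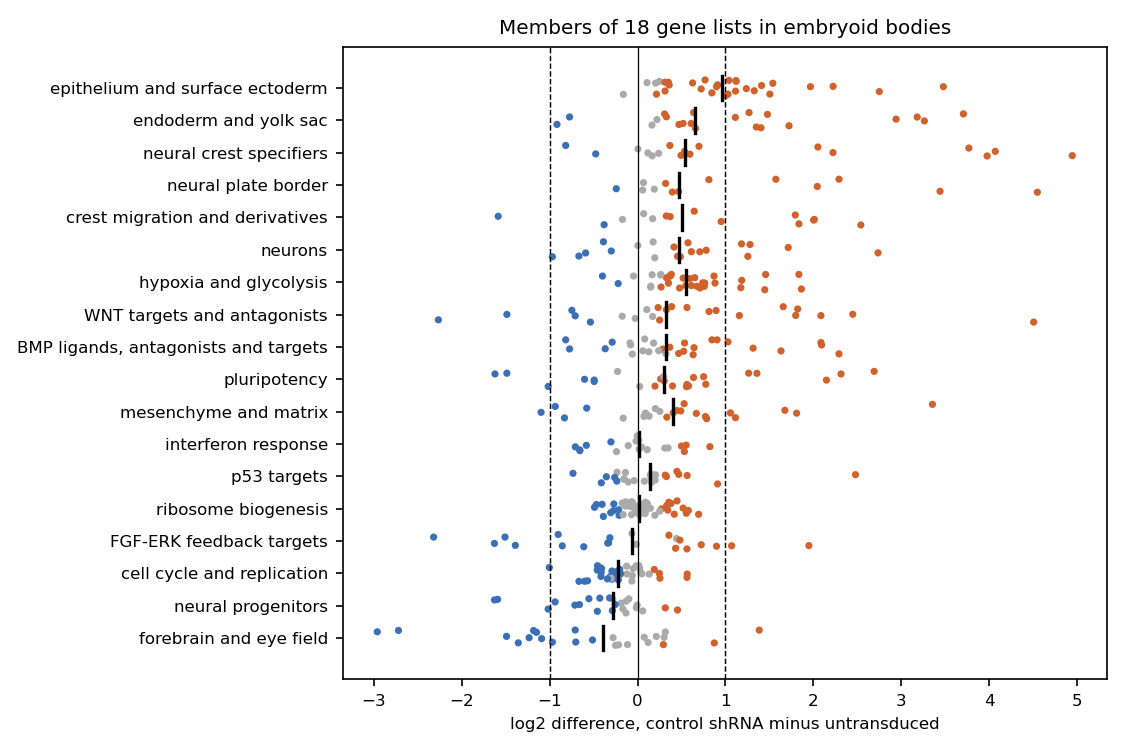
Difference in log2 intensity between control shRNA and untransduced embryoid bodies for each tested member of 18 gene lists (orange, rose; blue, fell; grey, did not pass), with the list median as a black bar and dashed lines at 2-fold. The epithelial list has the highest median (0.96) and the forebrain list the lowest (−0.40), and interferon and ribosome biogenesis genes lie around 0.

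General responses of the cell were smaller. A lentivirus can be sensed by interferon pathways. Of 35 interferon response genes with a probe set of their own, 19 were tested. Of these 4 rose and 5 fell, none by 2-fold, with a median of 0.01. Over all genes tested 26.8% rose and 23.9% fell, the background for the counts in this paragraph. IFIT1 fell by 0.71 and TAP1 of antigen processing rose by 0.82, a call lost with all 18 arrays (limma adjusted p 0.17). Of 10 tested genes that sense or restrict viral nucleic acids 4 rose, none by 2-fold. In the p53 list 7 of 25 rose and 5 fell, and PMAIP1, a proapoptotic BH3 protein, was alone at 2-fold (2.48 ± 0.23). With median centring the p53 median changed sign, from 0.14 to −0.03. The study's title concerns ribosome function, and ribosome biogenesis genes had 11 of 49 that rose and 9 that fell, none by 2-fold. The NODAL and TGF beta list had 7 of 16 that rose and 2 that fell, the NOTCH list 7 and 6 of 22, and the hedgehog list 4 and 2 of 13. The medians of the NOTCH and hedgehog lists, 0.15 and 0.06, became −0.02 and −0.11 with median centring.

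Hypoxia and glycolysis genes rose more widely, 25 of 33 tested, 6 of them 2-fold (18.2%), against 2 that fell, with a median of 0.55. ANKRD37 (1.86 ± 0.08), the stress gene NDRG1 (1.84), the prolyl hydroxylase EGLN3 (1.46) and the aldolase ALDOC (1.45) led. ANKRD37 did not pass in a fit of all 18 arrays (limma adjusted p 0.065). Cell cycle and replication genes fell slightly, 22 of 40 against 5 that rose, with a median of −0.22. Only PCNA, the replication clamp, fell 2-fold (−1.01 ± 0.09). With quantile normalization 16 of these genes fell, none by 2-fold, and 6 rose (median −0.16). With median centring 28 fell and 2 rose (median −0.40). In the ATF4 and unfolded protein list 14 of 27 rose and 2 fell, a median of 0.23 that became 0.06 with median centring. Cholesterol synthesis had 4 of 18 that rose and 9 that fell, none by 2-fold.

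**Figure D5:**
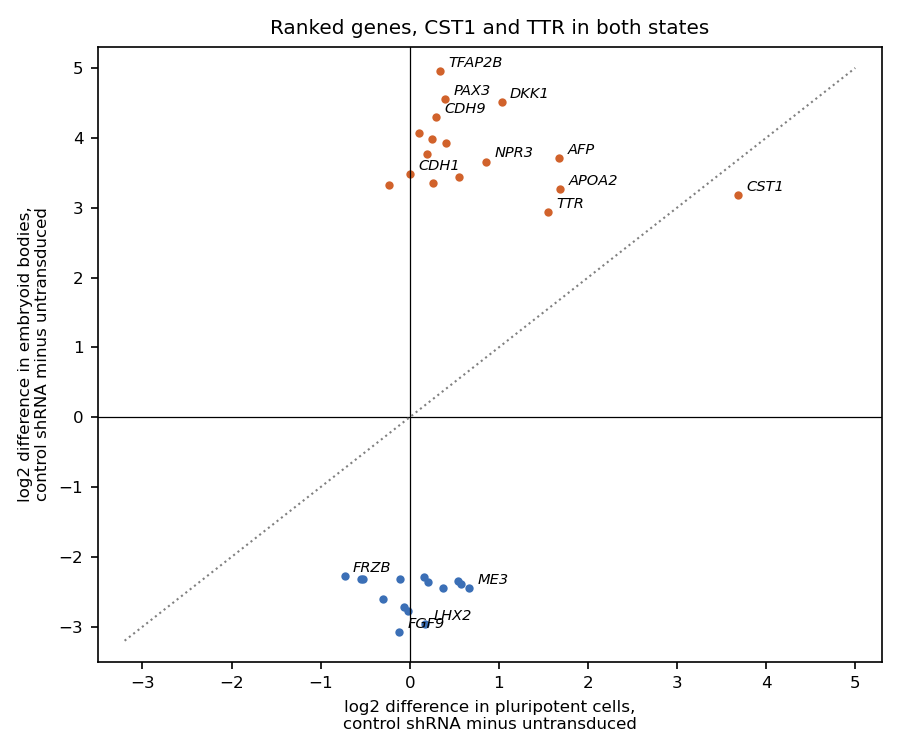
Difference in log2 intensity between control shRNA and untransduced cells in embryoid bodies (vertical) and in pluripotent cells (horizontal) for the 30 ranked genes with CST1 and TTR, each axis from 6 arrays that the other does not use. On the dotted line both differences are equal, and CST1 (3.18 in embryoid bodies and 3.68 in pluripotent cells) lies near it.

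The same contrast in pluripotent cells, on 6 other arrays, was much narrower. There 2611 of 13434 genes tested passed (19.4%), 83 of them 2-fold (0.618%), of which 50 rose 2-fold (0.372%) and 33 fell 2-fold (0.246%). Of the 354 genes that rose 2-fold in embryoid bodies 293 were tested in pluripotent cells, where 100 rose (34.1%, against 11.4% of all genes) and 21 fell. Of the 185 that fell 2-fold 128 were tested, where 37 fell (28.9%, against 8.02%) and 12 rose. For TFAP2B the difference in pluripotent cells was 0.34, for CDH9 0.30, for FGF9 −0.12 and for LHX2 0.17, and these genes lay under the intensity limit there. DKK1 differed by 1.03 below that limit.

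A fit of 12 arrays tested whether the difference was unlike between the states. It passed for 2288 of 13304 genes (17.2%; 8.32% with a higher and 8.88% with a lower difference in embryoid bodies, 2.28% and 1.43% by 2-fold or more, together 3.71%), and for all 30 ranked genes with the larger change in embryoid bodies, which their ranking on that state favours. Of these 30, 17 were above the intensity limit in pluripotent cells, and 7 passed there, 4 in the same direction as in embryoid bodies. The endoderm genes differed in both states: AFP rose by 1.68 and APOA2 by 1.69 in pluripotent cells, and TTR by 1.55, less than in embryoid bodies (adjusted p of the difference between states 0.00012, 5.1e-06 and 0.00041). CST1 rose by 3.68 in pluripotent cells and by 3.18 in embryoid bodies, and that difference between states did not pass (−0.49, adjusted p 0.21). ME3, PARM1 and CAPN6, which fell in embryoid bodies, rose in pluripotent cells (0.67, 0.57 and 0.54).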

How the data were processed

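Transcripts were measured on Affymetrix Human Gene 1.0 ST arrays. The authors deposited log2 intensities, and the submitters' processing notes name GCRMA without a version; the log base was taken from that method and the range of values. Whether the 18 arrays were normalized together is not given in the sources used here, and raw array files were not analysed here.

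Of 33297 probe sets, 19460 carried 1 gene symbol, 1754 several and 12083 none in the platform annotation. The first covered 18417 genes, named through RefSeq (GRCh38.p14), where 25 had no entry. Each gene was represented by its probe set of highest mean intensity. Genes that exceeded the 40th percentile on 3 or more of the 6 arrays were tested (13304). The 6 arrays were fitted alone with limma 3.58.1 in R 4.3.3, with Benjamini-Hochberg adjustment over all genes tested. The code was tested on simulated data. Figures used matplotlib 3.10.9.

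The comparison and the 36 gene lists, which share some members, were chosen with earlier results of these data known. The genes named are the 15 largest changes each way among genes called without overlap between the groups, KBTBD8, the 5 markers of the comparison (TFAP2B, DKK1, CDH9, FGF9, LHX2), and list members. Replicate numbers did not pair the arrays. Alternatives were other sets of arrays, normalizations, filters and probe set rules, a replicate block, and each array left out in turn.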

Additional observations from a re-analysis of the deposited data

Results flagged for a closer look

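The difference between control shRNA and untransduced cells was unlike between the states for all 30 ranked genes, by the interaction term of limma over 12 arrays at an adjusted p under 0.05. The values are the log2 difference in embryoid bodies minus that in pluripotent cells. Among genes that rose they were TFAP2B 4.60, PAX3 4.15, DKK1 3.48, CDH9 4.0, ETS1 3.97, SNAI2 3.73, MIR302A 3.51, TFAP2C 3.58, AFP 2.02, NPR3 2.79, CDH1 3.48, TFAP2A 2.89, S100A10 3.10, NRP2 3.55 and APOA2 1.57. Among genes that fell they were FGF9 −2.96, LHX2 −3.13, PRSS23 −2.74, SIX3 −2.65, IGFBP3 −2.30, ME3 −3.13, MEIS1 −2.82, PARM1 −2.96, F2RL2 −2.57, CAPN6 −2.89, ETV5 −1.79, GABRG3 −1.76, AKAP6 −2.20, DIPK1C −2.45 and FRZB −1.53. The genes were ranked on the difference in embryoid bodies, which favours a larger change there. Only 17 of them were above the intensity limit in pluripotent cells, and for the other 13 the value mostly restates the difference they were ranked on.

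Probe sets without a gene symbol were fitted apart from the genes and only counted. Of 5081 above the intensity limit, 662 were higher and 307 lower in control shRNA embryoid bodies at an adjusted p under 0.05 by limma. Both are smaller shares than among the genes tested, of which 26.8% were higher and 23.9% lower.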

How the results depend on the processing

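The 539 genes called at 2-fold or more kept call and direction with 12 or 16 arrays, quantile normalization, median centring, no filter, a replicate block and the mean of probe sets, and 538 did with an intensity trend and robust fit. With all 18 arrays 486 did. In all, 18 arrays gave 3702 calls (1964 higher, 1738 lower), 178 and 76 list members higher and lower in place of 304 and 158, and 755 interaction calls in place of 2288, whereas 16 arrays, without replicate 2 of both KBTBD8 shRNA groups, gave 6067 calls. Of the 123 named genes tested, 19 lost their call with 18 arrays, FRZB among them (limma adjusted p 0.088). SOX9, at 0.00 and not called, became −0.02 with quantile normalization, −0.17 with median centring and as low as −0.03 with 1 array left out (−0.02 in another), and ZIC2, not called at 0.06, became −0.12 with median centring. Median centring gave 1855 higher and 5346 lower, with 310 lower by 2-fold. The filter at the 60th percentile, which tests fewer genes (9227), gave 2179 higher and 201 list members higher. With 1 array left out, calls ranged from 5510 to 6345 (2901 to 3445 higher, 2609 to 2942 lower), 2-fold rises from 347 to 404 and 2-fold falls from 184 to 196, and list members from 268 to 301 higher and 134 to 149 lower. Leaving out 1 array ended the call of DPPA4 (untransduced replicate 1, 0.22, or control shRNA replicate 1, 0.25), FOXA2 (untransduced replicate 1, 0.27, or control shRNA replicate 2 or 3, 0.30 each) and MAP2 (untransduced replicate 1 or 3, −0.24 and −0.27, or control shRNA replicate 2 or 3, −0.30 and −0.29). A replicate block gave 6436 calls (3442 higher, 2994 lower) and 354 and 185 by 2-fold, and the deviations of equal replicate numbers correlated at −0.12, 0.03 and 0.02. The median standard error was 0.14 with 18 arrays, 0.1 with 16 and 0.086 in the fit of the compared arrays alone. With 16 arrays only FOXA2 and MAP2 of the named genes lost their call (limma adjusted p 0.064 and 0.073). Most calls lost with 18 arrays were thus lost only when replicate 2 of both KBTBD8 shRNA groups, outside the comparison, was included. Apart from the centring and the number of genes, the cause of these changes was not tested. Signal near background limits genes under the intensity limit.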

Other observations

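Small nucleolar RNA genes stood out among gene classes, a comparison made after the values were seen. Of 107 tested, 15 were higher by 2-fold or more and 1 lower, with a median difference of 0.56. Of 12618 protein-coding genes 327 were higher and 180 lower, with a median of 0.01. Of 258 long noncoding RNA genes 6 were higher and 3 lower by 2-fold, with a median of 0.12. MicroRNA genes had 3 of 44 higher and none lower by 2-fold, with a median of 0.27. MIR302B among them was tested only through the control shRNA arrays. The 12 small nuclear RNA genes had a median of 0.16 and no 2-fold change. Over all genes tested 2.66% rose and 1.39% fell 2-fold. Medians of these classes under the other scalings were not computed.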
